A study of Mus musculus with 6 samples.

Results

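The neutrophils of epicutaneously sensitized mouse skin were taken here as 79 droplet barcodes out of 38206, chosen by their own transcripts from 6 single-cell RNA libraries with no minimum number of genes. A barcode counted as a neutrophil when at most 15% of its UMIs (unique molecular identifiers, each standing for 1 captured transcript) were mitochondrial, S100a8 and S100a9 together had at least 10 UMIs, the MHC class II genes H2-Aa, H2-Ab1, H2-Eb1 and Cd74 were under 1% of UMIs, and Krt5 and Krt14 were under 0.5%. These genes therefore describe the members and support nothing below. Each library came from enzymatically digested skin of Balb/c mice, collected 2 days after 10 days of sensitization and run on the 10x Chromium 3′ v2 platform. The 3 EC-OVA libraries are labelled OVA-sensitized and the 3 EC-SAL libraries control. The labels call the tissue sensitized skin in both groups, give no age or sex, and do not say whether a library is 1 mouse or a pool. They also name the cell type as CD4 for all 6, whereas the EC-OVA libraries hold 3420 fibroblast barcodes (20 or more UMIs of Col1a1, Col1a2 and Col3a1 together) and 346 macrophage barcodes. Nothing says that the libraries of a group came from separate mice, so each p-value rests on library-to-library spread that may be purely technical.

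Neutrophils are short-lived granulocytes made in the bone marrow that leave the blood at sites of damage or infection, drawn by CXCR2 chemokines, formylated peptides, complement C5a and leukotriene B4. They carry granules that are filled in a fixed order during maturation in the marrow, so that mature cells contain granule proteins whose mRNA has already been shut off. They hold little RNA per cell and shut down much of their transcription as they mature, which is why droplet experiments with a minimum of genes per barcode often lose them. In allergic skin inflammation they are known as an early infiltrating cell that releases IL-1 and chemokines.

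The 250 bases before the RefSeq start of 7 genes (build GRCm38.p6) are shown because these genes carry the identification and the cytokine results: the S100 genes that chose the barcodes, the receptor and marker genes used to check them, and the interleukin and chemokine transcripts that were high in them. Capitals mark matches, on either strand, to 4 motifs: TTGCNNAA for C/EBP, GGGA and TTCC with any 2 bases between them for NF-kB, GAGGAAGT for PU.1 and TATAAA for the TATA box.
S100a8, chr3:90668821-90669070, plus strand: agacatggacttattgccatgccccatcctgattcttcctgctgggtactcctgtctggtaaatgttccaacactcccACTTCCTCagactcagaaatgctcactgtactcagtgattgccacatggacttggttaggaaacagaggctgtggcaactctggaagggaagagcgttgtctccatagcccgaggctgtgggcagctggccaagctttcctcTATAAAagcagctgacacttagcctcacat
S100a9, chr3:90695722-90695971, minus strand: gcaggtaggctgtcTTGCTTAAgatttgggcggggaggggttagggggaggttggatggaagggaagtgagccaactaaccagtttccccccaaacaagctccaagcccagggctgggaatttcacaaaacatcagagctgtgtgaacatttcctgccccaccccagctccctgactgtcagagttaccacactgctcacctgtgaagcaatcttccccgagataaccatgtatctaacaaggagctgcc
Retnlg, chr16:48872358-48872607, plus strand: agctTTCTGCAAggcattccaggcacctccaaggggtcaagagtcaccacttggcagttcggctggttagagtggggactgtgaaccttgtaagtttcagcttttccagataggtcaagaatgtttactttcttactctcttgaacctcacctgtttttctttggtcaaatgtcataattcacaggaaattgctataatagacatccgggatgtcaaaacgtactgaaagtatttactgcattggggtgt
Csf3r, chr4:126024409-126024658, plus strand: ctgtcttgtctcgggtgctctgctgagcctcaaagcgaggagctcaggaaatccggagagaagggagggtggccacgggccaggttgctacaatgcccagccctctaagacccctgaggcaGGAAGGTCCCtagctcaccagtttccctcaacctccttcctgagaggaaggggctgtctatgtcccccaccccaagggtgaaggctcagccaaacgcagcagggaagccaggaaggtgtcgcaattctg
Cxcr2, chr1:74153744-74153993, plus strand: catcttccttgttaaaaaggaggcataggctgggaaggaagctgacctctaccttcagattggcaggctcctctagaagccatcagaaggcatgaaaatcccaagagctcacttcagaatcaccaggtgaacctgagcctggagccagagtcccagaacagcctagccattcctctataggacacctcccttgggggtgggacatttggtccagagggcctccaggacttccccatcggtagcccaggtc
Il1b, chr2:129371140-129371389, minus strand: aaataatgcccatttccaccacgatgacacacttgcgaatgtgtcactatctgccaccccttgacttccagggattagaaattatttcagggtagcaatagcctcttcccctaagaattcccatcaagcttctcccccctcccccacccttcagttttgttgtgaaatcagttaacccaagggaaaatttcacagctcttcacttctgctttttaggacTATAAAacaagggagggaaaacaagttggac
Cxcl2, chr5:90903649-90903898, plus strand: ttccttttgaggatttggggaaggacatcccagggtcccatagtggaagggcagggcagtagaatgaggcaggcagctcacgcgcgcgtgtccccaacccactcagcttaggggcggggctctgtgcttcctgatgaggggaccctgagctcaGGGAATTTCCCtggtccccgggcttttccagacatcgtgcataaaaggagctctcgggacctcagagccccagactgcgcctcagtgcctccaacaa
The S100a9 and Retnlg windows each hold 1 C/EBP match, the Csf3r window 1 NF-kB match, and the S100a8 window 1 PU.1 match and a TATA box 30 to 25 bases before the start. In the Cxcl2 window the NF-kB match reads on both strands, overlapping, 97 to 87 bases before the start. The Il1b window holds a TATA box 31 to 26 bases before the start and no other match, and no motif was found in the Cxcr2 window. Of all 32851 windows of this length, 9.56% hold the C/EBP letters, 1.21% the NF-kB letters, 2.44% the PU.1 letters and 12.37% the TATA letters. Among the 18 of 22 neutrophil identity genes with a window, 5 hold the C/EBP letters (Clec4e, Ly6g, Mmp8, Retnlg and Slpi), 1 the NF-kB, 2 the PU.1 and 4 the TATA letters. A match is a description of the letters and shows no binding.

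Nearly all neutrophil barcodes came from EC-OVA skin. The EC-OVA libraries held 22, 25 and 28 of them among 3875, 4147 and 3587 barcodes within the mitochondrial limit, and the EC-SAL libraries held 1, 2 and 1 among 5392, 4655 and 4379. Their share was 0.568%, 0.603% and 0.781% in EC-OVA (exact 95% intervals 0.356 to 0.858%, 0.390 to 0.889% and 0.519 to 1.13%), against 0.0185%, 0.0430% and 0.0228% in EC-SAL. Each EC-OVA library lay above each EC-SAL library. The mean share was 0.650 ± 0.114% in EC-OVA and 0.0281 ± 0.0130% in EC-SAL (SD, n = 3 each), with p = 0.1 in a two-sided exact permutation test, the smallest p that 3 against 3 libraries allow. The intervals cover counting error only.

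**Figure D1:**
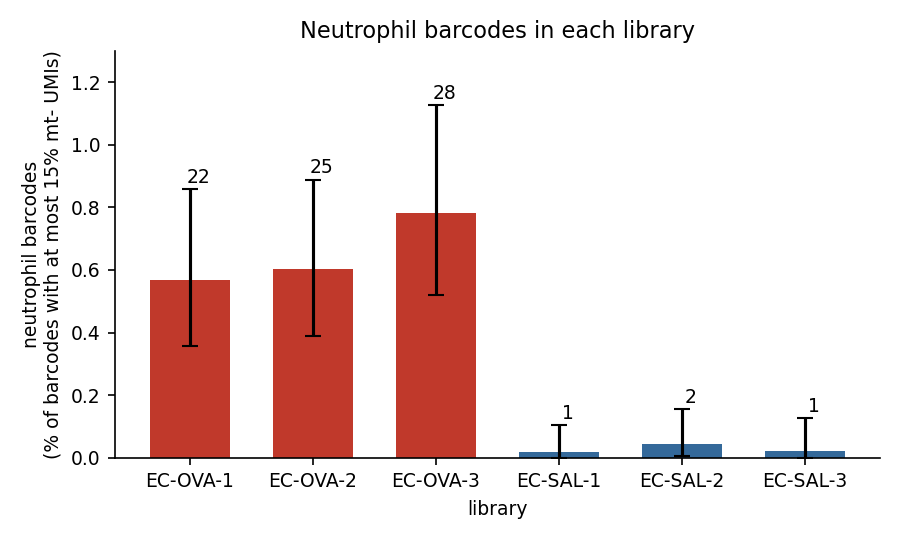
Neutrophil barcodes as a percentage of the barcodes with at most 15% mitochondrial UMIs (y axis) in each library (x axis). Bars are the shares, lines the exact 95% binomial intervals, and the label on each bar is the number of barcodes: 22, 25 and 28 in EC-OVA and 1, 2 and 1 in EC-SAL.

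The barcodes were shallow. The 75 EC-OVA neutrophil barcodes had a median of 632 UMIs and 340 genes, with medians of 330, 316 and 347.5 genes in the 3 libraries. C1q macrophage barcodes of the same libraries (C1qa, C1qb and C1qc at 5 UMIs or more together; 103, 120 and 123 barcodes) had medians of 893, 819 and 837 genes. In each library the neutrophil median lay below the macrophage median, with a mean difference of -518.5 genes (exact sign-flip permutation p = 0.25, the smallest that 3 libraries allow). With each barcode thinned to 500 UMIs the medians were 291, 275 and 281 genes in neutrophils and 331, 326.5 and 332 in macrophages, a mean difference of -47.5 genes. At equal depth the difference was smaller, and neutrophils were still lower in each library. The median mitochondrial share was 0.199% in EC-OVA neutrophil barcodes and 4.02% in macrophage barcodes.

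A minimum of 300 genes would have removed 16 of the 75 EC-OVA barcodes (3, 8 and 5 by library), and a minimum of 400 genes would have removed 57. The lowest UMI total in any deposited barcode was 500, and 33 of the 75 neutrophil barcodes had under 600 UMIs, close to that floor. Barcodes under it were not used here, so the counts are of neutrophils above 500 UMIs and say nothing of those below. Just inside the S100 threshold lay 4 barcodes with 10 to 12 S100 UMIs, and just outside it 4 with 7 to 9. A further 4 barcodes met the S100 minimum but not the MHC class II limit, and 3 met it but not the keratin limit.

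Depth split the members into a large compact set and 6 that stood apart. Of the 79 barcodes, 73 had 1194 UMIs or fewer, while 6 had between 4099 and 22343. The 71 EC-OVA barcodes of the compact set gave 1.82 to 22.0% of their UMIs to S100a8 and S100a9 (median 4.26%), whereas the 6 deep barcodes gave 0.107 to 0.619%. The deep barcodes also held many transcripts of other cells. The EC-OVA-1 one had 96 UMIs of Sparc, a matrix protein of stromal cells, and 87 of Fabp4, a lipid carrier of capillary endothelium. Those of EC-OVA-2 had 74 and 120 UMIs of Dcn, a fibroblast proteoglycan, and that of EC-OVA-3 had 280 of Sparc. In EC-SAL, 1 deep barcode had 267 UMIs of Krt27 and 216 of Krt71, keratins of the hair inner root sheath, and the other had 204 of Pmel and 84 of Dct, melanocyte genes. These barcodes meet the rule through a small part of their RNA, and the 4 from EC-OVA hold 46.6% of all UMIs of the EC-OVA members. Without barcodes of over 2000 UMIs, a limit set after seeing the data, 71 EC-OVA and 2 EC-SAL barcodes were left, with mean shares of 0.616 ± 0.118% in EC-OVA and 0.0133 ± 0.0116% in EC-SAL. Results below are for all members unless a limit is named. Barcodes under 2000 UMIs held 13548 of 35891, 15103 of 28488 and 18876 of 24595 member UMIs in EC-OVA-1, EC-OVA-2 and EC-OVA-3. The CPM of all members by library include the deep barcodes. Their order across libraries therefore does not measure differences between neutrophils. Of 82 genes given values or named below that were called against macrophages and could be fitted in the members under 2000 UMIs, 80 kept their call there. Cebpd lost its call and Sparc turned its sign, and both values are given below.

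**Figure D2:**
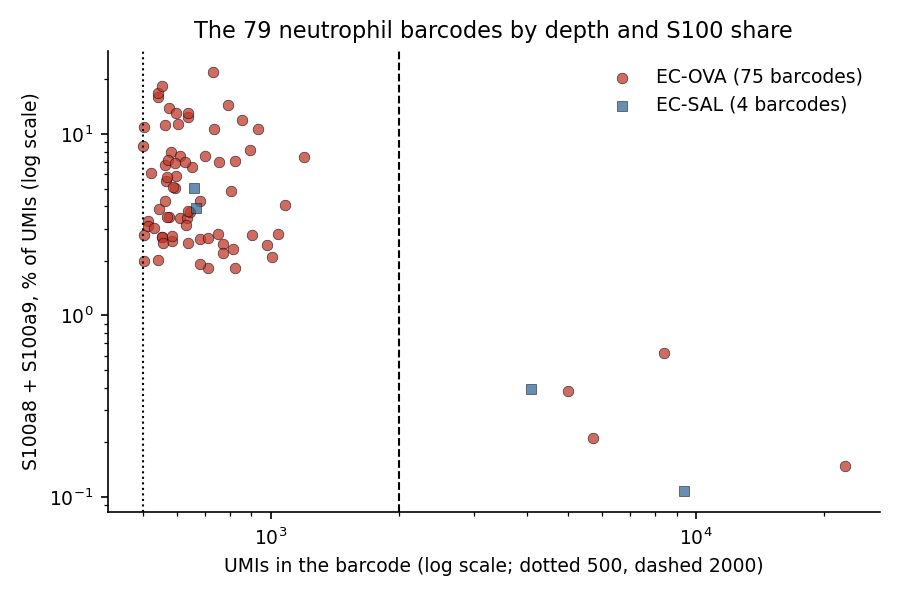
Each point is 1 of the 79 neutrophil barcodes, by its UMIs (x axis, log scale) and the percentage of them from S100a8 and S100a9 (y axis, log scale); circles are EC-OVA, squares EC-SAL, and the dotted and dashed lines mark 500 and 2000 UMIs. The 6 barcodes right of the dashed line have the lowest S100 shares, from 0.107 to 0.619%.

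The label was checked with 3 marker genes that the rule did not use. Retnlg, a resistin-like protein of neutrophils, had a UMI in 21 of 75 EC-OVA neutrophil barcodes (28%) and in 0 of 346 macrophage barcodes, which allows up to 1.06% (exact 95% bound). Cxcr2, the receptor for neutrophil-attracting chemokines, had one in 25 (33.3%) and in 0 of 346. Csf3r, the receptor for the growth factor G-CSF, had one in 23 (30.7%) and in 28 macrophage barcodes (8.09%), which were deeper, at a median of 1845.5 UMIs. In EC-OVA fibroblast barcodes, which should lack all 3 genes and had a median of 6608.5 UMIs, the shares were 0% for Retnlg, 0.117% for Cxcr2 and 0.0585% for Csf3r. At least 1 of the 3 markers was present in 50 of 75 EC-OVA neutrophil barcodes (17, 13 and 20 by library) and in 1 of 4 EC-SAL ones. In the other EC-OVA barcodes none of the 3 was detected at this depth, which does not show that they lacked them.

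Markers of several other cell types were low in the 71 EC-OVA barcodes under 2000 UMIs. None of 13 dendritic cell genes had a UMI, the eosinophil list had 1 UMI (of Siglecf) and the mast cell and basophil list 2 (of Cma1). The lymphoid list had 17 UMIs, a mean share of 0.0348% against 0.00281% in macrophage barcodes. Of the 17 UMIs, 16 were from Cd3d, while Cd3e and Trac were at 0. Monocyte genes made up 0.255 ± 0.0546% of their UMIs, with 8 of the 12 at 0 and 90 of the 124 UMIs from Lyz2, against 1.76% in monocyte barcodes (defined further on, partly by these genes). Macrophage genes made up 0.381 ± 0.121% of their UMIs, keratinocyte genes 0.221 ± 0.0885% and fibroblast genes 0.0899 ± 0.0232% (SD, n = 3 libraries). The rule itself limited Krt5, Krt14 and MHC class II genes. Low keratinocyte, dendritic cell and macrophage shares are therefore a description and no check of the label. With the 4 deep barcodes the fibroblast share was 1.29 ± 0.880%. No barcode met both the neutrophil and the macrophage rule. Pairs of libraries had 33 to 87 barcode sequences in common, and none of these was a member in both libraries. In some pairs 1 of the shared sequences was a member in only 1 library.

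Within the EC-OVA libraries, members held most of the UMIs of Fpr1, Retnlg and Trem1. The 75 barcodes held 23 of 25 UMIs of Fpr1, the formyl peptide receptor, and 64 of 70 UMIs of Retnlg (91.4%). They held 137 of 183 UMIs of Trem1 (74.9%), an activating receptor of neutrophils and monocytes. Other genes of neutrophils came mostly from other barcodes. The members held 47.6% of the UMIs of C5ar1, the receptor for complement C5a, and 39 of 103 UMIs of Cxcr2 (37.9%). They held 28.9% of the Csf3r UMIs, 10.9% of those of Hdc, the enzyme that makes histamine, 4.80% of those of Il1b, 3.58% of those of Il1r2 and 1.16% of those of Cxcl2.

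Levels are given in CPM, a gene's UMIs summed over the barcodes of a library and scaled as counts per 1e6 UMIs. Among the most abundant transcripts of the 71 EC-OVA barcodes under 2000 UMIs was Fth1, the ferritin heavy chain, at 48287 ± 5944 (SD, n = 3). S100a9 had 39563 ± 2079, the actin-binding peptide Tmsb4x 24530 ± 3430, S100a8 21977 ± 2856 and Il1b 16256 ± 1034 CPM. Malat1 (958 UMIs) and Ftl1 (865 UMIs) also lay above Il1b (776 UMIs). Srgn, the proteoglycan core of secretory granules, had 12427 ± 1087, Cxcl2 11722 ± 4863 and Cd14 9889 ± 842 CPM. Actg1 (577 UMIs) lay between Srgn (594 UMIs) and Cxcl2 (540 UMIs). Apart from the S100 genes, which chose the barcodes, an interleukin and a chemokine thus stood among the leading transcripts.

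Against C1q macrophages of the same EC-OVA libraries, neutrophils had higher levels of granulocyte receptor genes such as Cxcr2 and Fpr1 and of Il1r2, the decoy receptor of IL-1, and lower levels of macrophage genes such as Pf4, Mrc1 and Csf1r. UMIs were summed per class and library, giving 3 sums of each, and tested with edgeR with the library as a block. Of 2169 genes tested, 10.8% were higher in neutrophils and 8.3% were lower, at a Benjamini-Hochberg adjusted p under 0.05, and 45% did not overlap between the classes. With members under 2000 UMIs only, 17.7% of 1971 genes were higher and 29.7% lower. The median log2 difference of all genes tested was -0.26 with all members. A gene nearly absent from macrophages could pass the filter on low counts only through neutrophils, so list counts below describe the genes that passed and are no support on their own.

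All 18 of the 22 listed neutrophil identity genes that were tested were higher, with a median log2 difference of 6.59, or 5.86 with genes absent from macrophages at their lower bound. Retnlg had 446, 527 and 1342 CPM in neutrophils and 0 CPM in each macrophage sum. Trem1 had 1114, 1615 and 2074 CPM in neutrophils, against 0, 0 and 3.61 CPM in macrophages. Hdc had 1700, 2247 and 2805 CPM in neutrophils, against 3.80, 3.15 and 0 CPM in macrophages. The classes lay far apart for all of these, and macrophages were at or near 0 in each library. Against a floor of 3 counts over the macrophage class, Retnlg was at least 206-fold higher (adjusted p = 6.01e-06). The ratio was 1320 for Trem1 (137 UMIs against 1, exact 95% interval 233 to 52531) and 935 for Hdc (194 against 2, interval 255 to 7775). Intervals of ratios, here and below, pool UMIs over the libraries. They cover counting error only, not the spread between barcodes or libraries. Slpi, a protease inhibitor of the list, lost its call without EC-OVA-2 (adjusted p = 0.067) or EC-OVA-3 (0.069). Csf3r had 251, 316 and 407 CPM in neutrophils, against 26.6, 28.3 and 43.3 CPM in macrophages. It was thus present in both classes without overlap, and its log2 difference was 3.22 ± 0.57 (SE, adjusted p = 0.0011; 3.84 under 2000 UMIs). Cstdc4, a stefin-like gene, and Mrgpra2b, a Mas-related receptor, were at 0 UMIs in macrophages and at least 180-fold and 106-fold higher.

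**Figure D3:**
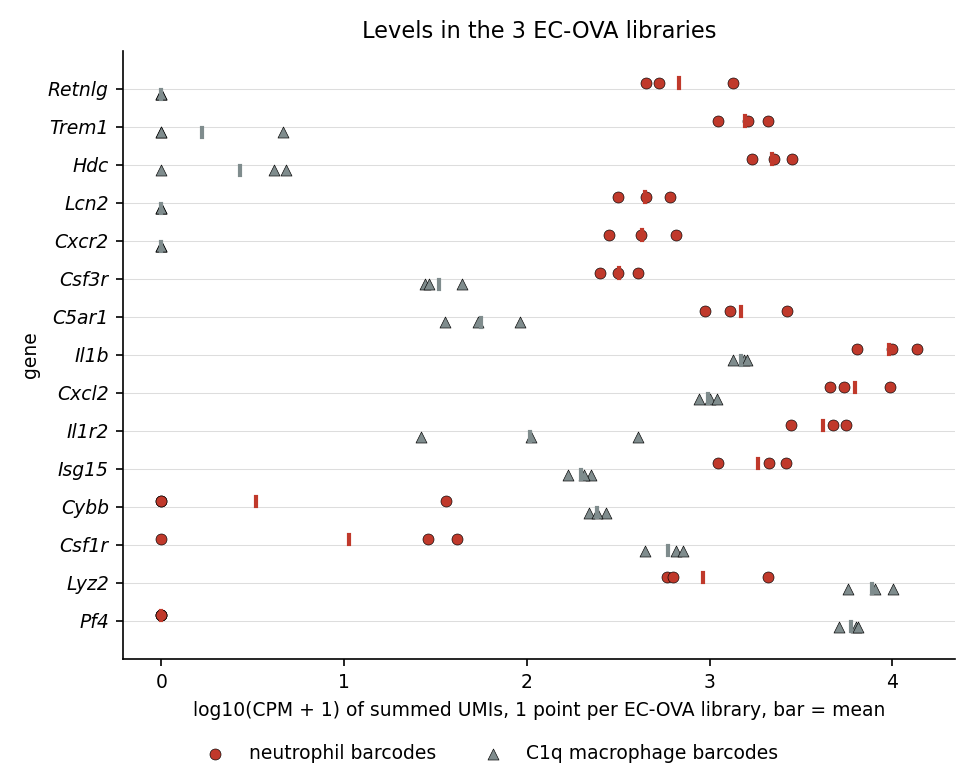
Log10(CPM + 1) of UMIs summed per class (x axis) for 15 genes (y axis) in the 3 EC-OVA libraries; circles are neutrophil barcodes, triangles C1q macrophage barcodes, and vertical bars the means. Retnlg, Lcn2 and Cxcr2 were at 0 in all 3 macrophage sums, Pf4 at 0 in all 3 neutrophil sums, and no gene shown overlaps between the classes.

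None of the primary granule genes in the table, which neutrophil precursors make first, had a UMI in a member. Of the secondary and tertiary granule genes, Ngp, Camp and Chil3 had 0 UMIs, Ltf had 1 and Mmp8 had 6 in the EC-OVA members, and Ly6g and Cd177, surface proteins of mouse neutrophils, had 1 each. Lcn2, an iron-scavenging granule protein, had 446, 316 and 610 CPM in neutrophils and 0 CPM in each macrophage sum, a difference of at least 129-fold (adjusted p = 4.12e-05). Within the 15 listed genes, 7 were tested, and Hp, Lcn2, Mmp9 and Pglyrp1 were higher in neutrophils. Mmp9, the gelatinase of tertiary granules, had 362, 246 and 813 CPM in neutrophils, against 30.4, 3.15 and 0 CPM in macrophages (log2 difference 5.33 ± 0.85, adjusted p = 0.00054). Arg1 and Cybb were lower, and both had at most 1 UMI in neutrophils. The Arg1 call was lost without EC-OVA-2 (0.12) or EC-OVA-3 (0.069). Of the 6 NADPH oxidase genes, whose products make superoxide, Ncf4 and Rac2 were higher and Cyba and Cybb, the membrane subunits, were lower. Cybb had 0, 35.1 and 0 CPM in neutrophils, against 270, 217 and 242 CPM in macrophages, a ratio of 0.0466 from 1 UMI (exact 95% interval 0.0012 to 0.262). Without EC-OVA-2 the calls of Ncf4 (adjusted p = 0.13) and Cyba (0.29) were lost, without EC-OVA-1 that of Cyba (0.071), and without EC-OVA-3 that of Ncf4 (0.060). Under 2000 UMIs, Ncf1 was also higher.

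Among 11 tested receptors for chemoattractants, 7 were higher in neutrophils (C5ar1, Ccr1, Ccrl2, Cxcr2, Fpr1, Fpr2 and Ptafr), 3 were lower, C3ar1 and Ccr2 among them, and Cxcr4 did not pass the test. Cxcr2 had 418, 281 and 650 CPM in neutrophils and 0 CPM in each macrophage sum, at least 125-fold higher (adjusted p = 4.44e-05). C5ar1 had 947, 1299 and 2643 CPM in neutrophils, against 53.2, 34.6 and 90.2 CPM in macrophages (log2 difference 4.67 ± 0.46, adjusted p = 9.26e-06). Fpr1 had 111, 316 and 407 CPM in neutrophils and 0 CPM in each macrophage sum, at least 73.9-fold higher. These 3 receptors, for CXC chemokines, complement and formylated peptides, separated the classes in every library. C3ar1 and Ccr2 were at 0 UMIs in the members, and at least 6.57-fold and 2.84-fold lower against the floor of 3 counts. The call of Ccr2 was lost without EC-OVA-2 (adjusted p = 0.12) or EC-OVA-3 (0.069). So were those of Ccr1 without EC-OVA-2 (0.072) and of Ptafr without EC-OVA-2 (0.37) or EC-OVA-3 (0.092). Ptafr lost its call in 11 of 23 alternatives in all. Cxcr4, which holds neutrophils in the marrow and rises as they age, had 306, 211 and 488 CPM in neutrophils, against 198, 214 and 332 CPM in macrophages. The classes overlapped, and its log2 difference was 0.34 ± 0.43 (adjusted p = 0.63), with the sign turning at some thresholds.

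Of 19 tested cytokine and chemokine genes, 10 were higher and 6 lower in neutrophils, with a median log2 difference of 1.41, and 3 of the 10 belong to the IL-1 family. Il1b, the inflammatory cytokine IL-1β, had 6380, 9934 and 13621 CPM in neutrophils, against 1544, 1597 and 1343 CPM in macrophages. Il1r2, its decoy receptor, had 2786, 4739 and 5570 CPM in neutrophils, against 403, 104 and 25.3 CPM in macrophages. Both genes were higher in each neutrophil sum than in any macrophage sum. The log2 difference was 2.61 ± 0.44 for Il1b (adjusted p = 0.00073; 3.19 under 2000 UMIs) and 5.16 ± 0.81 for Il1r2 (adjusted p = 0.00045). Il1rn, the IL-1 receptor antagonist, had 780, 2106 and 2968 CPM in neutrophils, against 570, 576 and 722 CPM in macrophages (1.41 ± 0.43, adjusted p = 0.034). Il1f9, the IL-36γ gene, had 17 UMIs in neutrophils and 0 in macrophages, at least 54.6-fold higher. Without EC-OVA-2 the calls of Il1b (adjusted p = 0.069) and Il1rn (0.31) were lost, and without EC-OVA-3 that of Il1rn (0.20), which was lost in 10 of 23 alternatives in all, while those of Il1r2 and Il1f9 held.

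Cxcl2, a ligand of CXCR2 that draws neutrophils, had 4569, 9758 and 5448 CPM in neutrophils, against 1000, 869 and 1094 CPM in macrophages (log2 difference 2.59 ± 0.43, adjusted p = 0.00065). Ccl3, a ligand of CCR1, had 641, 4177 and 1708 CPM in neutrophils, against 274, 91.3 and 361 CPM in macrophages (2.84 ± 0.70, adjusted p = 0.011). Ccl4, a chemokine of the same family, had 836, 4388 and 1301 CPM in neutrophils, against 415, 570 and 844 CPM in macrophages, which overlapped by a small margin (1.46 ± 0.48, adjusted p = 0.049). EC-OVA-2 was the highest neutrophil sum for each of these 3 chemokines. The Ccl4 call was lost in 11 of 23 alternatives, DESeq2 (adjusted p = 0.10) and no filter (0.44) among them, and the Ccl3 call in 4. Without EC-OVA-2 the calls of all 3 were lost, at a log2 difference of 2.14 for Cxcl2 (adjusted p = 0.067), 1.64 for Ccl3 (0.12) and 0.71 for Ccl4 (0.49). Cxcl3, Ccl6, Tnf and Csf1 were also higher, and Tnf lost its call without EC-OVA-2 (0.35) and in 7 of 22 alternatives in all. Lower in neutrophils were Ccl2, Ccl7, Ccl8, Ccl9, Ccl24 and Cxcl16, with the calls of Ccl2 (0.15) and Ccl7 (0.15) lost without EC-OVA-3. Ccl8, a monocyte and T cell attractant, had 55.7, 105 and 81.3 CPM in neutrophils, against 14294, 18633 and 18929 CPM in macrophages (-7.81 ± 0.57, adjusted p = 1.42e-06). Ccl24, an eosinophil attractant, was at 0 UMIs in neutrophils and at least 13.7-fold lower.

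Of 16 tested pattern recognition and Fc receptor genes, 9 were higher, among them Cd14, the co-receptor for lipopolysaccharide, and the C-type lectins Clec4d and Clec4e, and Fcgr2b was lower. Cd14 had 3845, 4985 and 8254 CPM in neutrophils, against 799, 1153 and 1079 CPM in macrophages (log2 difference 2.37 ± 0.40, adjusted p = 0.00083; 3.05 under 2000 UMIs). With members under 2000 UMIs, 15 of 17 were higher, the signalling adaptor Tyrobp and the Fc receptors Fcer1g and Fcgr3 included. Of 14 tested adhesion and migration genes, 7 were higher and 0 lower, and under 2000 UMIs 11 of 15 were higher and S100a4 was lower. S100a11, a calcium-binding protein, had 2842, 5722 and 6709 CPM in neutrophils, against 506, 693 and 451 CPM in macrophages (3.07 ± 0.44, adjusted p = 0.00021).

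Interferon-stimulated genes were higher in 10 of 12 tested, with a median log2 difference of 3.33, and none was lower. Isg15, a ubiquitin-like protein, had 1114, 2106 and 2602 CPM in neutrophils, against 224, 167 and 206 CPM in macrophages (3.15 ± 0.45, adjusted p = 0.00021). Ifitm1, a membrane protein of the interferon response, had 529, 1299 and 1423 CPM in neutrophils, against 7.61, 6.30 and 25.3 CPM in macrophages (6.30 ± 0.55, adjusted p = 3.96e-06). Acod1, an identity gene whose product makes itaconate, had 752, 2738 and 2236 CPM in neutrophils, against 0, 28.3 and 10.8 CPM in macrophages (7.22 ± 0.60, adjusted p = 3.96e-06). All 3 genes were separated in every library.

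Of 9 tested survival and apoptosis genes, 5 were higher: the anti-apoptotic Bcl2a1a, Bcl2a1b, Bcl2a1d and Birc3 and the pro-apoptotic Bcl2l11. Bcl2a1b had 1087, 1404 and 1870 CPM in neutrophils, against 137, 195 and 155 CPM in macrophages (log2 difference 3.07 ± 0.41, adjusted p = 0.00014). These paralogs are near-identical, so reads may be split among them. Without EC-OVA-2 the calls of Bcl2l11 (adjusted p = 0.085), Bcl2a1d (0.22), Bcl2a1a (0.20) and Birc3 (0.21) were lost, and that of Bcl2a1b held. Birc3 was also lost without EC-OVA-1 (0.060), and Birc3 (0.073) and Bcl2a1a (0.092) without EC-OVA-3. In all, the Birc3 call was lost in 9 of 22 alternatives. Of 24 tested transcription factor genes, 8 passed. Cebpb, Cebpd, Ets2, Klf2 and Nfkbia, an NF-kB inhibitor kept in that list, were higher, and 3 were lower, Irf8 and Maf, factors of the monocyte and macrophage lineage, among them. Under 2000 UMIs, 8 were higher and 4 lower, and Cebpd was no longer called (log2 difference 0.94, adjusted p = 0.056). Irf8 had 0 UMIs in the members, against 84 in macrophages, but with the MHC class II limit at 2% its log2 difference was -0.17 (adjusted p = 0.93). Cebpb, a factor of granulocytes under stress, had 3288, 6389 and 10490 CPM in neutrophils, against 1833, 1316 and 1960 CPM in macrophages (1.79 ± 0.44, adjusted p = 0.012). Without EC-OVA-2 the calls of all of the factors named were lost, at adjusted p from 0.068 for Maf to 0.31 for Cebpd. Without EC-OVA-3 those of Cebpb (0.073), Cebpd (0.13), Ets2 (0.078), Irf8 (0.069) and Maf (0.051) were lost. Over all alternatives the Cebpd call was lost in 10 of 23 and the Ets2 call in 8 of 23. Of 12 tested glycolysis and hypoxia genes Pkm alone was higher, and lost its call without EC-OVA-2 (0.072) or EC-OVA-3 (0.098). Of 17 tested genes known to rise during tissue digestion, Btg2 and Dusp1 were higher. Under 2000 UMIs 6 of 16 were higher (these and Ier2, Ier3, Junb and Socs3) and 2 lower (Fosb and Hsp90aa1), and their part in the other results was not tested.

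Macrophage genes were lower in 15 of 16 tested. Pf4, a platelet and macrophage chemokine, was at 0 UMIs in neutrophils and had 6352, 5108 and 6496 CPM in macrophages, at least 176-fold lower. Ms4a7 and Mrc1, the mannose receptor, were likewise at 0 and at least 42.9-fold and 17.4-fold lower. Csf1r, the receptor that macrophages need to live, had 27.9, 0 and 40.7 CPM in neutrophils, against 654, 441 and 718 CPM in macrophages, a ratio of 0.0377 from 2 UMIs (exact 95% interval 0.0046 to 0.137). Lyz2, a lysozyme shared by both lineages, had 585, 632 and 2074 CPM in neutrophils, against 10018, 5706 and 8044 CPM in macrophages (log2 difference -3.12 ± 0.50, adjusted p = 0.00056; -2.37 under 2000 UMIs). Apoe, a lipid carrier, had 1087, 2387 and 5855 CPM in neutrophils, against 14758, 8855 and 12754 CPM in macrophages (-2.29 ± 0.54, adjusted p = 0.0090, lost without EC-OVA-2 at 0.14). Of its 251 UMIs in EC-OVA members only 45 lay in barcodes under 2000 UMIs, where the difference was -3.90. The deep barcodes also set the sign of Sparc, called higher with all members at 558 UMIs, of which 13 lay in the barcodes under 2000 UMIs, where its log2 difference was -1.55 (3.37 with all members, lost without EC-OVA-2 at 0.17 or EC-OVA-3 at 0.071).

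Monocytes are the closer relative of neutrophils, and 33 EC-OVA barcodes (10, 10 and 13 by library) had Ly6c2 and Plac8 at 2 UMIs or more each, Lyz2 at 3 or more and fewer than 5 C1q UMIs. Of 503 genes tested, 14.9% were higher in neutrophils and 6.96% lower, and 47.9% did not overlap. Under 2000 UMIs, 38.3% of 397 were higher and 38.5% lower. All 10 tested neutrophil identity genes were higher (median log2 difference 5.50, or 4.94 with genes absent from monocytes at their bound, against -0.17 over all genes tested). Retnlg was at least 30.1-fold higher than in monocytes, where it had 0 UMIs. G0s2, a lipolysis inhibitor, had 1282, 2106 and 3781 CPM in neutrophils and 0 CPM in each monocyte sum, at least 93.6-fold higher. Il1r2 had 2786, 4739 and 5570 CPM in neutrophils, against 238, 35.1 and 70.8 CPM in monocytes (5.22 ± 0.67, adjusted p = 0.00014). Hdc had 18.3, 0 and 0 CPM in monocytes, a ratio of 274 from 1 UMI (exact 95% interval 48.6 to 10871).

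The cytokine genes set the classes apart less evenly. Il1b had 6380, 9934 and 13621 CPM in neutrophils, against 4570, 4879 and 4788 CPM in monocytes. The classes did not overlap, yet the difference missed the threshold with all members (log2 difference 1.07 ± 0.40, adjusted p = 0.072) and passed it under 2000 UMIs at 1.63. Cxcl2 had 4569, 9758 and 5448 CPM in neutrophils, against 128, 246 and 2901 CPM in monocytes (3.76 ± 0.86, adjusted p = 0.0070). Ccl3 had 641, 4177 and 1708 CPM in neutrophils, against 0, 526 and 0 CPM in monocytes (4.47 ± 0.78, adjusted p = 0.00091). Isg15 had 1114, 2106 and 2602 CPM in neutrophils, against 183, 2211 and 543 CPM in monocytes, which overlapped (1.59 ± 0.59, adjusted p = 0.072). It differed by 2.06 under 2000 UMIs and by 2.60 without EC-OVA-2, and passed the threshold in both. Lower in neutrophils were Ccr2, the receptor that brings monocytes into tissue, H2-DMb1, an MHC class II loading factor, Ms4a6c and Aif1, each at 0 UMIs in the members. H2-DMb1 was at least 30.9-fold lower, Ms4a6c 27.6-fold and Aif1 24.6-fold. Ctss, a lysosomal protease of antigen-presenting cells, had 27.9, 105 and 40.7 CPM in neutrophils, against 2523, 2843 and 2477 CPM in monocytes (-5.42 ± 0.61, adjusted p = 6.58e-05). H2-DMb1 and Ctss belong to the class II pathway, of which other genes were used to choose the members.

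Among the members, Ccl4 and Ccl3 were the most unevenly spread of 128 genes, each with 50 UMIs or more. Rarer genes were not ranked. Over the 71 EC-OVA barcodes under 2000 UMIs, the 7 highest barcodes held 83.9% of the 180 Ccl4 UMIs and 83.7% of the 184 Ccl3 UMIs, against a median of 35.5% over the 128. Next came Wfdc17 at 78.0%, Retnlg at 77.8%, Cstdc4 at 70.0% and Spp1 at 67.4%. Ccl3 was present in 21 barcodes, with 87 UMIs in 1 of them, and Ccl4 in 19, with 67 UMIs in 1; 10 barcodes had both. By library, Ccl3 had 23, 119 and 42 UMIs and Ccl4 had 23, 125 and 32, so EC-OVA-2 held most of both. Il1b and Il1r2 were spread widely, in 69 and 64 of the 71 barcodes. Cxcl2 lay between, in 51 barcodes with 53.5% of its 540 UMIs in 7. Retnlg was in 20 barcodes, and Isg15 in 36, of which 7 held 61.5%. A UMI of Tnf was found in 52.4% of barcodes with Ccl3 and in 14.0% of those without, at median depths of 638 and 602 UMIs. These are counts of barcodes that share libraries, and no test was made.

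**Figure D4:**
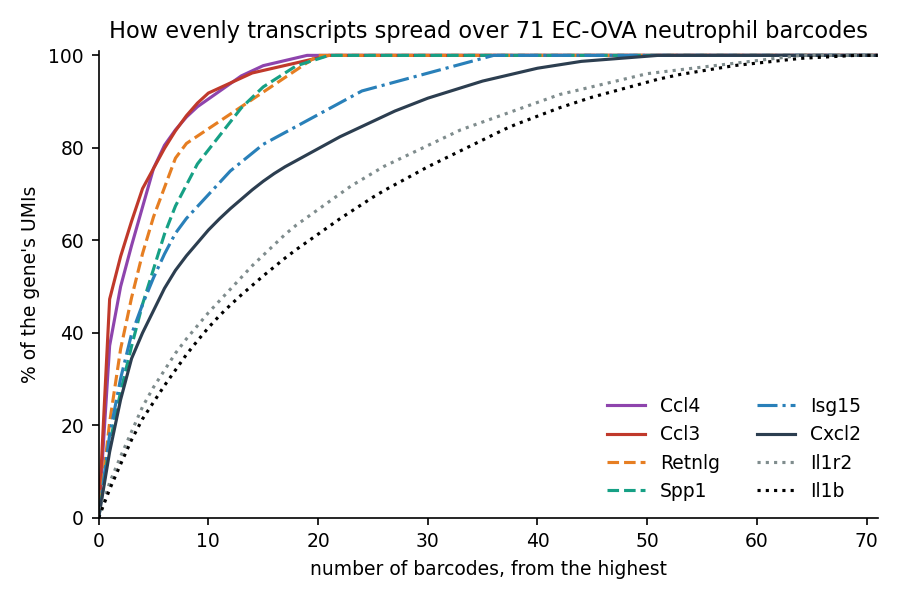
Cumulative percentage of a gene's UMIs (y axis) over the 71 EC-OVA neutrophil barcodes under 2000 UMIs, ordered from the highest barcode (x axis), 1 line per gene. Ccl3 and Ccl4 climb fastest, with 83.7% and 83.9% of UMIs in 7 barcodes, and Il1b and Il1r2 slowest.

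The 16 EC-OVA barcodes under 300 genes can be set beside the 55 others under 2000 UMIs. Neutrophil identity genes made up 3.17%, 3.80% and 3.24% of UMIs in the low-gene barcodes of the 3 libraries, against 3.57%, 4.03% and 3.98% in the others. Il1b made up 0.517%, 2.14% and 0.915% in the low-gene barcodes, against 1.78%, 1.21% and 1.86% in the others. Its share was thus lower in low-gene barcodes of EC-OVA-1 and EC-OVA-3 and higher in those of EC-OVA-2, which holds 8 of the 16. A marker (Retnlg, Csf3r or Cxcr2) was present in 62.5% of low-gene barcodes and 67.3% of the others. Macrophage genes were 0.246% of UMIs in the low-gene barcodes and 0.422% in the others. A few abundant transcripts took more of the low-gene barcodes: Fth1 was 8.21% of UMIs there and 4.0% in the others, S100a9 6.88% and 3.26%, and S100a8 4.11% and 1.74%. The S100 genes chose the barcodes with a fixed number of UMIs, so their shares are a description. Barcodes chosen for few genes, at a median of 570 UMIs against 638 in the others, have more UMIs per gene by that choice. The larger share of Fth1 is therefore also a description. The low-gene sums were too small for the planned fit and no test was made.

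Neutrophil genes were also compared between EC-OVA and EC-SAL in whole libraries, summing all barcodes within the mitochondrial limit, which needs no choice of barcodes. In such sums, fewer cells of a type and less RNA per cell cannot be told apart. Of 15055 genes tested, 22.8% were higher in EC-OVA and 22.7% lower, and 52.1% did not overlap. Of 19 tested identity genes, 13 were higher, 3 were lower and 3 did not pass (median log2 difference 0.83, against -0.00 over all genes tested). Retnlg had 0.848, 0.649 and 1.46 CPM in EC-OVA, against 0.0327, 0 and 0 CPM in EC-SAL (adjusted p = 0.00039). Its UMIs were 70 against 1 (ratio 82.8, exact 95% interval 14.4 to 3315, for counting error of the pooled UMIs only). Trem1 had 2.46, 2.48 and 2.74 CPM in EC-OVA, against 0.0982, 0.0369 and 0.148 CPM in EC-SAL (log2 difference 4.63 ± 0.30, adjusted p = 2.25e-05). Csf3r had 1.36, 1.22 and 1.5 CPM in EC-OVA, against 0.327, 0.295 and 0.334 CPM in EC-SAL (2.01 ± 0.21, adjusted p = 0.00020). For these 3 genes all EC-OVA libraries lay above all EC-SAL ones.

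Other genes of the list did not behave alike. Cxcr2 had 1.65, 0.974 and 1.71 CPM in EC-OVA, against 1.21, 0.738 and 0.927 CPM in EC-SAL. The groups overlapped, and its log2 difference of 0.52 ± 0.26 missed the threshold (adjusted p = 0.14). Without the member barcodes that difference was -0.11. A UMI of Il1r2 was also found in 44.2% of EC-OVA and 50.1% of EC-SAL fibroblast barcodes, so this gene is not particular to neutrophils. In the sums Il1r2 had 141, 145 and 149 CPM in EC-OVA, against 160, 164 and 159 CPM in EC-SAL. It was lower in EC-OVA (-0.21 ± 0.05, adjusted p = 0.0087), with 3.58% of its EC-OVA UMIs in members. Hcar2, a receptor for niacin and ketone bodies, and Il1f9 were also lower, and Asprv1 and Wfdc21 did not pass. Il1f9 lost its call without EC-SAL-1 (adjusted p = 0.066) or EC-SAL-3 (0.053). Hdc had 20.2, 30.9 and 22.9 CPM in EC-OVA, against 3.24, 2.29 and 2.52 CPM in EC-SAL (3.14 ± 0.21, adjusted p = 2.38e-05), with 10.9% of its EC-OVA UMIs in members. Of 11 tested mast cell and basophil genes, which share Hdc with neutrophils, 9 were also higher in EC-OVA, and their part in the Hdc difference was not tested. Without the member barcodes 10 of 17 tested identity genes were higher and 3 lower. Retnlg and Trem3 then had too few UMIs to be tested, and Trem1 differed by 2.65 on the log2 scale. All 12 keratinocyte genes were lower and all 8 fibroblast genes higher in EC-OVA sums, so the make-up of the sums also differed. Monocyte genes were higher in 9 of 12 tested (median log2 difference 1.49) and dendritic cell genes in 9 of 13 (0.92), and 33 of the 34 monocyte barcodes came from EC-OVA. The part of these cells in the sums was not tested.

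**Figure D5:**
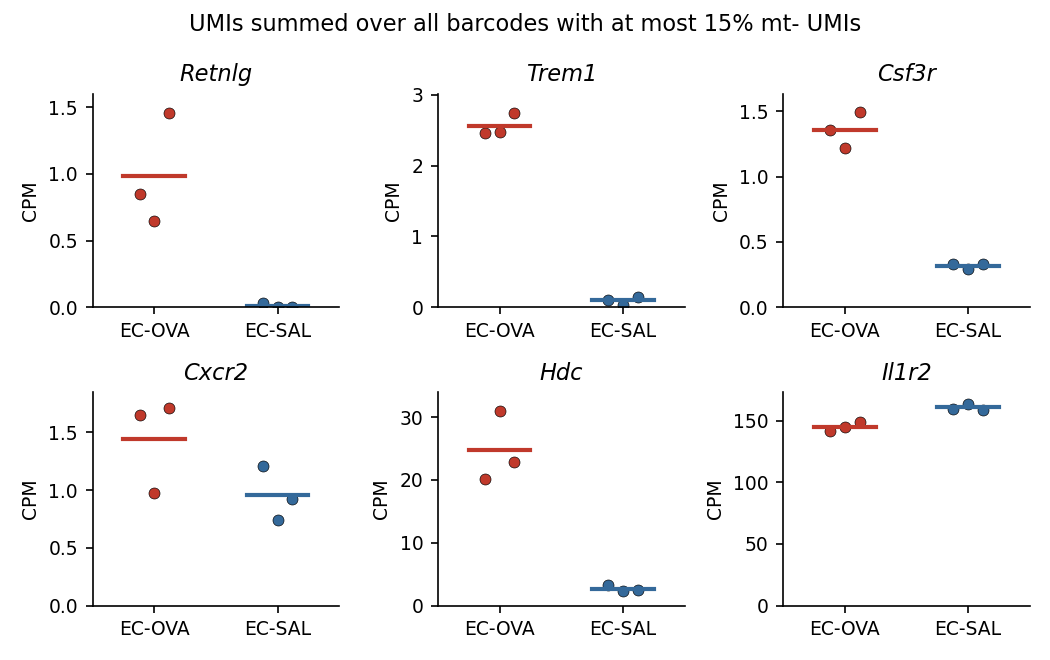
CPM of 6 genes of the neutrophil identity list in UMIs summed over all barcodes with at most 15% mitochondrial UMIs (y axes, from 0). Each library is 1 point, with a line at the mean of each group of 3, EC-OVA on the left and EC-SAL on the right. Retnlg, Trem1, Csf3r and Hdc do not overlap and are higher in EC-OVA, Cxcr2 overlaps, and Il1r2 is lower in EC-OVA.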

How the data were processed

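Gene expression was measured by 10x 3′ v2 single-cell sequencing in 6 libraries. The deposited matrices hold UMI counts per gene and barcode, not normalized. Per the file headers they were written by Cell Ranger 3.1.0, and the submitters' processing notes name Cell Ranger, STAR and mm10. The annotation version is not given in the sources used here. All 6 matrices hold 32285 genes, and the libraries total 25350813 to 26561765 UMIs in EC-OVA and 29745423 to 33650630 in EC-SAL.

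Barcodes were classed by the rules given in the report and UMIs summed per class and library. The members and gene lists were chosen with earlier results of these data known. Sums were tested with edgeR 4.0.16 (quasi-likelihood, TMM, filterByExpr, Benjamini-Hochberg over all genes tested, threshold 0.05) in R 4.3.3, with the library as a block between classes. Genes used to choose either class were left out of counts of called genes. Shares and medians had exact permutation tests (scipy 1.17.1). Genes named are the 10 largest called rises and falls per class comparison without overlap and at 200 CPM or more, up to 4 per list, and a fixed set of neutrophil genes. Other list members and barcodes are named after their values were seen, and some genes that the rule takes are not reported here. The fits were tested on simulated data: at a log2 change of 2 they recovered 55.7%, 94.6% and 92.9% of changed genes against macrophages, against monocytes and between summed libraries, and at 1 they recovered 5.8%, 27.5% and 13.4%. False calls were 0, 4 and 5 genes. The simulated counts had a fixed spread, the same mean profile in both groups apart from the changed genes, and no library effect. Recovery in the real sums may therefore differ. No doublet caller was run; leaving out members with 3 or more UMIs of C1q, collagen or Cd3 genes was an alternative. Other thresholds, scalings, filters, DESeq2 1.42.0 and leaving out each library were also tried. Promoter windows come from a RefSeq table on GRCm38.p6.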

Additional observations from a re-analysis of the deposited data

Results flagged for a closer look

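A signal outside the members lay among barcodes that the mitochondrial limit removed. Of the barcodes with over 15% mitochondrial UMIs, 6 in EC-OVA and 1 in EC-SAL met every other part of the neutrophil rule. They entered no comparison above.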

How the results depend on the processing

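The share of neutrophil barcodes was higher in EC-OVA without overlap under each alternative tried, with differences of 0.290 to 0.720 percentage points; leaving out 1 library gave 0.557 to 0.664. The gene difference against macrophages stayed negative, at -533 to -496.25 with 1 library left out. A low-gene limit of 400 genes held 57 barcodes in place of 16. Against macrophages, 235 genes were higher, and 102 to 267 with 1 library left out (102 without EC-OVA-2 and 152 without EC-OVA-3). Of genes lower, 180 in the report became 345 with no filter, 107 with DESeq2, 585 under 2000 UMIs, 103 with 5 S100 UMIs, 366 with S100 at 5% of UMIs, 316 with keratin under 0.2%, 581 without doublet-like members, and 57 to 266 with 1 library left out (57 without EC-OVA-2, 76 without EC-OVA-3). Against monocytes, 75 genes were higher, 150 with no filter, 152 under 2000 UMIs and 65 to 97 with 1 library left out. Lower were 35, 80 with no filter, 21 with DESeq2, 153 under 2000 UMIs and 23 to 39 with 1 library left out. The cause of these moves was not tested.

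Cxcr4 against macrophages turned to -0.25 with no filter, -0.046 thinned, -0.060 with 20 S100 UMIs, -2.13 with S100 at 5% of UMIs and -0.055 with a marker also required. Sparc turned to -1.55 under 2000 UMIs, -1.90 with S100 at 5% of UMIs and -1.54 without doublet-like members. In summed libraries Cxcr2 turned to -0.11 without member barcodes, and Wfdc21 ranged from -0.58 without EC-OVA-2 to 0.9996 without EC-OVA-3. The rest of the alternatives kept the direction of the genes the text gives values for, with 137, 5 and 9 calls lost against macrophages, against monocytes and in summed libraries over all alternatives, among 1905, 176 and 226 values. Same-numbered EC-OVA and EC-SAL libraries had correlations of 0.426, 0.215 and -0.121 of their deviations from the group mean. Libraries of different numbers had -0.438 to 0.312. Deviations from a mean of 3 libraries depend on each other, so these values cannot decide whether the numbers pair the libraries. The replicate block left the 13 higher and 3 lower identity genes as they were and gave an exact sign-flip permutation p = 0.25 for the share, the smallest that 3 pairs allow. Fits of low-gene barcodes under other settings were not run, since their sums were too small. Depth limits the members: at a median of 632 UMIs a barcode, a gene not seen in it is not shown to be absent.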

Other observations

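Transcripts of some lymphoid genes, and not of others, appeared in the neutrophil barcodes. Ltb, the lymphotoxin β gene, had 130 UMIs in 43 of 75 EC-OVA members and 14 UMIs in the 346 macrophage barcodes. Cd3d had 16 UMIs in the members and 1 in the macrophages, while Cd3e and Trac were at 0 in members under 2000 UMIs. Ribosomal protein genes made up 3.78 ± 0.689% of the UMIs of EC-OVA members under 2000 UMIs, against 15.4 ± 2.85% in macrophages (SD, n = 3 libraries), with no overlap. In the fit against macrophages Cd3d was called higher, and it lost its call in 0 of 15 alternatives (adjusted p at most 0.0015). All of these values were noted after they were seen, and the ribosomal shares were not tested.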
